A study of Arabidopsis thaliana with 6 samples.

Results

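Light-grown seedlings of Arabidopsis thaliana were set against dark-grown seedlings that had been given hydrogen peroxide (H2O2), gene by gene, to describe which transcripts light gives that H2O2 in the dark does not, and which transcripts the H2O2-treated seedlings keep at a higher level. The comparison holds 4 of the 6 arrays of the series, chosen by their titles: 2 from light and 2 from H2O2. All seedlings were of the accession Col-0, carried no transgene or mutation named in the labels, and were harvested whole at 7 days. The light group was kept at 16 h light and 8 h dark per day, with no H2O2 named in its labels. The H2O2 group grew in darkness with 5 mM H2O2, and the dark group, also of 2 arrays, grew in darkness without it. Each array is described as a biological replicate, but the labels do not say how many seedlings were pooled, when H2O2 was added or at what hour of the light cycle the seedlings were taken. The light and H2O2 groups differ both in light and in added H2O2, and the shares of these in a difference cannot be told apart from this comparison alone. The dark arrays are therefore given beside it.

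A seedling that germinates in the dark lives on its seed reserves, elongates its hypocotyl and holds its plastids as etioplasts, which lack an assembled photosynthetic apparatus. Light, sensed by phytochromes and cryptochromes, turns on the nuclear and plastid genes for photosystems, carbon fixation and chlorophyll, and slows elongation. H2O2 is a product of photosynthesis and respiration that cells remove with ascorbate peroxidases, catalases and thioredoxin-linked enzymes, and it also serves as a signal that induces detoxification genes.

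Signals are log2 values from Affymetrix ATH1 arrays, so a difference of 1 is a 2-fold change. Differences are light minus H2O2 and carry the standard error (SE) of a limma fit over all 6 arrays, with 2 arrays in each group, and a call means a p under 0.05 after Benjamini-Hochberg adjustment over 22746 probe sets. Dim marks a gene whose mean in a group is below 5.16, under which 40% of probe sets fall, and a difference that starts or ends at such a level has an uncertain size. Replicate arrays correlated across probe sets at r = 0.993 in light and 0.995 with H2O2. A light and an H2O2 array correlated at 0.918 to 0.927, below the 0.974 to 0.979 of an H2O2 and a dark array. The excess of 3-prime over 5-prime signal, from 3 control transcripts, rises as RNA degrades and was 0.88 and 1.17 in light and 1.04 and 1.33 with H2O2, so the groups overlapped. The hybridisation controls, bacterial transcripts added during processing, had medians of 8.68 and 9.54 in light and 9.08 and 8.96 with H2O2. Light replicates thus stood further apart in these controls than the groups did.

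The labels of light against darkness were checked against lists of photosynthesis and starvation genes. These lists do not check the H2O2 label. In light, the 5 measured light-harvesting antenna genes had medians of 10.67 and 10.40, against 9.69 and 9.69 with H2O2 and 9.47 and 9.25 in the dark. The 4 measured genes on the Calvin cycle list had medians of 12.24 and 12.32 in light, against 10.66 and 10.37 with H2O2. The 17 measured genes of carbon starvation and branched-chain amino acid breakdown, which etiolated tissue is known to express, had medians of 8.65 and 8.43 in light, against 10.73 and 10.78 with H2O2 and 10.33 and 9.88 in the dark. In all 3 lists both light arrays stood apart from the other 4 in the direction of their label.

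Light and H2O2 seedlings differed at 8981 of 22746 probe sets (39.5%), of which 3968 (17.4% of those tested) were higher in light and 5013 (22.0%) lower. The higher side held the larger differences: 2126 (9.35%) were higher by at least 2-fold and 1862 (8.19%) lower, while 830 were higher and 347 lower by at least 4-fold, and 97 higher and 29 lower by at least 16-fold. The median over all probe sets was -0.06. Of the calls, 44.2% were higher in light, and 54.4% were after centring on the hybridisation controls, where 2576 probe sets were called. Light and H2O2 arrays did not overlap at 15407 probe sets (67.7%), so absence of overlap between 2 arrays and 2 arrays is common here. Counted by gene, 2061 of 13355 were higher (15.4%) and 2632 lower (19.7%). Centring on the hybridisation controls moves all genes of an array by the same amount. The SE under it was 0.488 for each of ECS1, ICL and psbC, against 0.130, 0.419 and 0.197 in the main fit. It thus acted largely as a limit on size. It ended the call of 74 of the 194 called genes that were picked for naming. All 74 had a difference of 1.44 or less in either direction, and 3 others within that size kept the call. Calls below that size that are named here and ended under this centring are pointed out in each paragraph.

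**Figure D1:**
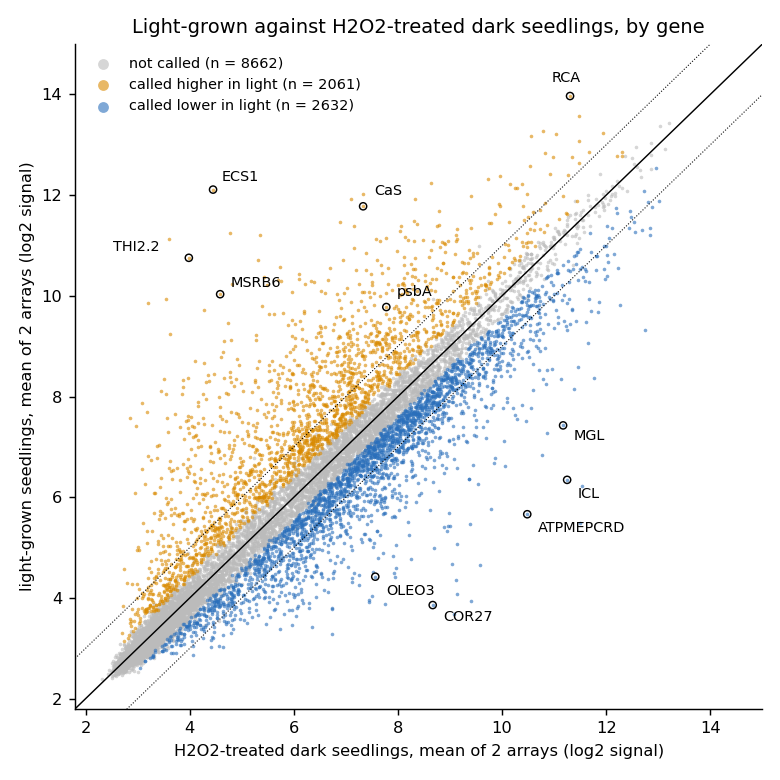
Mean log2 signal of 13355 genes in light-grown seedlings (vertical axis) against H2O2-treated dark seedlings (horizontal axis), each point 1 gene and each mean of 2 arrays. The solid line marks equal signal and the dotted lines a 2-fold difference; 2061 genes were called higher in light and 2632 lower, with ECS1 and RCA among the first and ICL and COR27 among the second.

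Nuclear genes of the photosynthetic apparatus were among the groups with the largest differences. Of 11 measured genes of the photosystems, electron transport and ATP synthase, 10 were higher, each by at least 2-fold, and the median difference was 2.1, against -0.06 over all probe sets. The 10 were 90.9%, against 15.4% of all genes. The largest were subunits of the chloroplast NDH complex, which carries electrons around photosystem I. NdhN had 10.28 and 9.86 on the light arrays, 5.78 and 6.16 on the H2O2 arrays and 5.85 and 5.96 on the dark arrays (difference 4.10 ± 0.18, adjusted p = 6.07e-07). NdhL had 10.29 and 10.30 in light, 6.36 and 6.29 with H2O2 and 5.49 and 5.45 in the dark (3.97 ± 0.12, adjusted p = 1.74e-07). The H2O2 arrays of NdhN overlapped the dark arrays, while those of NdhL stood above dark by 0.85 ± 0.12 (adjusted p = 0.00222), and both genes lay far under light. PSBY, a small photosystem II subunit, had 13.29 and 13.24 in light, against 10.85 and 10.72 with H2O2 (2.48 ± 0.13, adjusted p = 1.2e-06). PSAN, a photosystem I subunit facing the thylakoid lumen, had 13.31 and 13.13 in light and 10.95 and 11.13 with H2O2 (2.18 ± 0.14, adjusted p = 3.4e-06). ATPC2, a second gene for the gamma subunit of ATP synthase, was the member without a call, at 5.95 and 6.24 in light and 6.35 and 6.43 with H2O2. In whole seedlings, more cells with chloroplasts and more RNA per such cell cannot be told apart.

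All 5 measured antenna genes, which code for chlorophyll-binding proteins or their relatives, were higher in light, 3 of them after centring on the hybridisation controls, with a median of 1.6. Of all genes 15.4% were higher. LIL3:1, a light-harvesting-like protein that tethers enzymes of chlorophyll synthesis, had 10.67 and 10.40 in light, 8.42 and 8.17 with H2O2 and 7.76 and 7.36 in the dark (2.24 ± 0.18, adjusted p = 1.3e-05). The 3 genes for the minor antenna protein CP29 differed in size. LHCB4.3 had 8.50 and 8.39 in light, against 6.16 and 6.49 with H2O2 (2.12 ± 0.15). LHCB4.2 had 13.11 and 13.02, against 11.59 and 11.35 (1.6 ± 0.14), and LHCB4.1 had 13.10 and 13.36, against 11.95 and 11.90 (1.3 ± 0.14), a call that ended with centring on the hybridisation controls (adjusted p = 0.0961). For LHCB4.1 and LHCB4.3 the dark arrays, at 11.96 and 12.07 and at 6.58 and 6.74, were at or above the H2O2 arrays.

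Of 4 measured genes on the Calvin cycle list 3 were higher in light (75%), against 15.4% of all genes. SBPASE, the sedoheptulose bisphosphatase that regenerates the CO2 acceptor, had 12.15 and 12.31 in light, 8.79 and 8.49 with H2O2 and 8.25 and 8.19 in the dark (3.59 ± 0.15, adjusted p = 4.14e-07). RCA, the activase that keeps Rubisco working, had 14.03 and 13.90 in light, 11.58 and 11.03 with H2O2 and 10.89 and 11.16 in the dark (2.66 ± 0.19, adjusted p = 7.65e-06). PRK, phosphoribulokinase, had 12.32 on both light arrays, against 9.73 and 9.71 with H2O2 (2.6 ± 0.14). TPI, the list member without a call, codes for a cytosolic triose phosphate isomerase of glycolysis. Its arrays had 12.02 and 11.99 in light, against 11.82 and 11.49 with H2O2 (0.34 ± 0.15, adjusted p = 0.0988). HPR, the peroxisomal hydroxypyruvate reductase of photorespiration, had 13.29 and 13.05 in light, against 10.66 and 10.44 with H2O2 and 10.90 and 10.76 in the dark (2.62 ± 0.15, adjusted p = 1.89e-06).

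Transcripts for proteins that build and divide chloroplasts were higher in light almost throughout the list: 25 of 26 measured genes were called, 19 by at least 2-fold, with a median of 1.42 and a range of 0.02 to 4.45. The 25 were 96.2%, against 15.4% of all genes. When 1 array was left out 23 or 24 were called, and 13 with centring on the hybridisation controls. CaS, a thylakoid calcium sensor, had the largest difference, with 11.76 and 11.79 in light, 7.73 and 6.94 with H2O2 and 7.53 and 7.30 in the dark (4.45 ± 0.23, adjusted p = 1.23e-06). CRR42, needed for accumulation of the NDH complex and dim with H2O2, had 8.14 and 8.09 in light, against 5.14 and 4.92 (3.09 ± 0.15, adjusted p = 9.11e-07). FTSZ2-2, of the ring that divides plastids, had 8.37 and 8.53 in light, against 5.93 and 5.47 (2.75 ± 0.17). HCF101, which supplies iron-sulfur clusters to photosystem I, had 9.95 and 9.86 in light, against 7.30 and 7.27 with H2O2 and 6.61 and 6.84 in the dark (2.61 ± 0.14). YLMG1-2 was the exception, at 8.99 and 8.96 in light and 8.83 and 9.07 with H2O2.

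Chlorophyll and carotenoid synthesis genes were more often higher in light than lower. Of 12 measured tetrapyrrole genes 7 were higher in light and 2 lower, with a median of 0.81, and 3 higher and 0 lower were called with centring on the hybridisation controls. The 7 and 2 were 58.3% and 16.7%, against 15.4% and 19.7% of all genes. The 2 lower were 1 without light replicate 1 or H2O2 replicate 1. CHLI2, a subunit of the magnesium chelatase at the entry to the chlorophyll branch, had 9.60 and 9.61 in light, 7.04 and 6.74 with H2O2 and 6.45 and 6.64 in the dark (2.71 ± 0.15, adjusted p = 1.62e-06). HEME1 and HEME2, uroporphyrinogen decarboxylases, were higher by 2.01 ± 0.13 and 1.73 ± 0.13, and HEMB1, a porphobilinogen synthase, by 1.24 ± 0.14, a call that ended with that centring (adjusted p = 0.126). HEME1 had 8.91 and 8.99 in light, 7.01 and 6.87 with H2O2 and 6.98 and 6.93 in the dark, so its H2O2 and dark arrays overlapped. Both carotenoid genes measured, LYC (lycopene cyclase) and Z-ISO (zeta-carotene isomerase), were higher, by 1.40 ± 0.14 and 0.97 ± 0.14, and neither stayed called with that centring (adjusted p = 0.0606 and 0.331).

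Plastid-encoded transcripts showed smaller differences than the nuclear ones. Of all genes 15.4% were higher in light and 19.7% lower. Of 45 measured photosynthesis genes of the plastid genome, 15 were higher in light (33.3%), none was lower, and the median difference was 0.44. That count was 7 without light replicate 2, 8 without H2O2 replicate 1, 7 without H2O2 replicate 2 and 3 with centring on the hybridisation controls. Sorted by complex, 10 of 15 photosystem II genes were called higher (median 0.86) 2 of 5 photosystem I genes (0.54), 2 of 6 ATP synthase genes (0.56) and the gene for the Rubisco large subunit (1.31), while 0 of 10 NDH genes (0.13) and 0 of 6 cytochrome b6f genes (0.09) were. This sorting was made after the values were seen and was not tested. psbA, which codes for the D1 protein that photosystem II replaces as light damages it, had 9.64 and 9.91 in light, 7.81 and 7.74 with H2O2 and 9.08 and 8.10 in the dark (2.00 ± 0.27, adjusted p = 0.000349). Its dark arrays stood above the H2O2 arrays. psaA, a photosystem I core subunit that is dim with H2O2, had 6.84 and 7.24 in light, against 5.17 and 5.11 (1.90 ± 0.19, adjusted p = 4.93e-05). psbC, the CP43 core antenna, had 10.01 and 10.56 in light, against 8.69 and 8.35 with H2O2 and 8.20 and 8.24 in the dark (1.77 ± 0.20). psaJ was called at 1.44 ± 0.37 (adjusted p = 0.0126) but not without light replicate 2 (0.0804), H2O2 replicate 1 (0.0607) or H2O2 replicate 2 (0.0929), nor with centring on the hybridisation controls (0.0502). The standard labelling for these arrays starts from poly(A) tails, which most organelle transcripts carry in small amounts, and the primer used is not given in the sources used here.

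Among 19 measured plastid genes for ribosomal proteins and RNA polymerase, 10 were higher in light, with a median of 0.70, falling to 4 without light replicate 2, 5 without H2O2 replicate 1, 3 without H2O2 replicate 2 and 0 with centring on the hybridisation controls. The 10 were 52.6%, against 15.4% of all genes. rps3, of the small ribosomal subunit, had 11.56 and 11.76 in light, 10.61 and 10.58 with H2O2 and 9.43 and 8.80 in the dark (1.06 ± 0.20, adjusted p = 0.00231). rps18 had 8.58 and 9.08 in light, 7.84 and 7.69 with H2O2 and 7.34 and 7.69 in the dark (1.06 ± 0.19, adjusted p = 0.00198). For rps3, rpl36 and rpl16 the H2O2 arrays stood between light and dark, and above dark by 1.48 ± 0.20, 1.82 ± 0.30 and 1.59 ± 0.39. The rps18 difference of H2O2 from dark, 0.26 ± 0.19, was not called. Over the list the median H2O2 minus dark difference was 0.685, and the median light minus dark difference was 1.386. The values that follow are again light minus H2O2. rpl36 was called at 1.34 ± 0.30 (adjusted p = 0.00647) and lost the call without H2O2 replicate 2 (adjusted p = 0.0738), and rpl16 at 1.19 ± 0.39 lost it whichever of the 4 arrays was left out (0.0612 to 0.156).

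**Figure D2:**
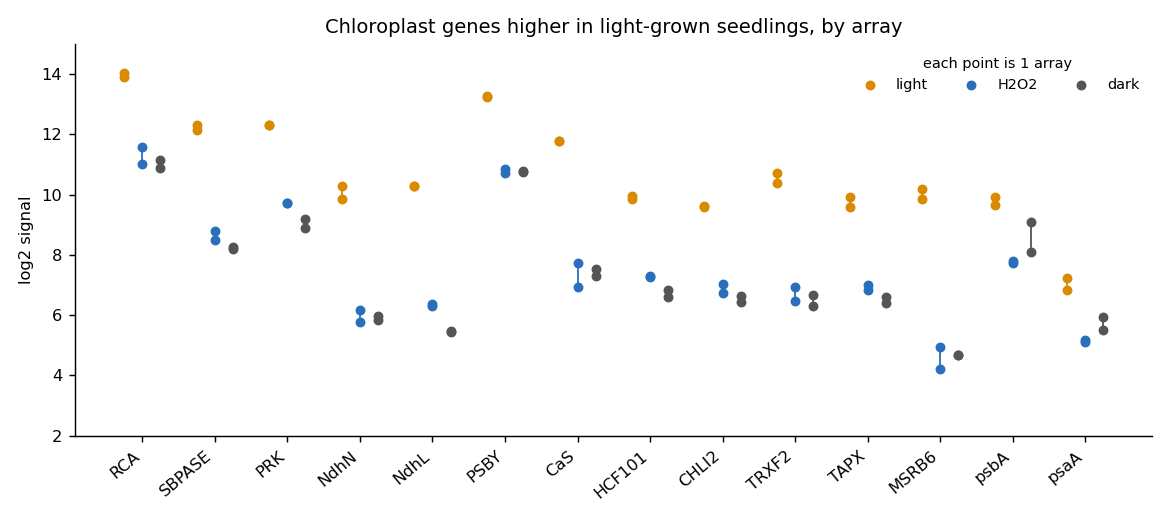
Log2 signal of 14 chloroplast genes on each array, with light at the left, H2O2 in the middle and dark at the right of each gene; each point is 1 array and the line joins the 2 replicates. Light arrays stand above both other groups in all 14, from psbA at 9.64 and 9.91 against 7.81 and 7.74 with H2O2 to MSRB6 at 10.19 and 9.87 against 4.95 and 4.22.

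Redox and repair genes were more often higher in light than lower, while 15.4% of all genes were higher and 19.7% lower. Of 21 measured antioxidant and repair genes, 11 were higher in light than with H2O2 and 3 were lower, with a median of 0.49, and 5 and 2 were with centring on the hybridisation controls. MSRB6, a methionine sulfoxide reductase that repairs oxidised protein, had 10.19 and 9.87 in light, 4.95 and 4.22 with H2O2 and 4.68 and 4.67 in the dark, a difference of 5.45 ± 0.23 from a dim level (adjusted p = 4.25e-07). TRXF2, the chloroplast thioredoxin f that switches on Calvin cycle enzymes, had 10.72 and 10.39 in light, 6.92 and 6.47 with H2O2 and 6.67 and 6.32 in the dark (3.86 ± 0.20). TAPX, the thylakoid ascorbate peroxidase, had 9.93 and 9.59 in light, 7.00 and 6.83 with H2O2 and 6.59 and 6.42 in the dark (2.85 ± 0.16). The H2O2 arrays overlapped the dark arrays for MSRB6 and TRXF2 and lay just above them for TAPX. NTRC, a chloroplast NADPH thioredoxin reductase, had 9.79 and 9.83 in light, 7.59 and 7.51 with H2O2 and 6.56 and 6.70 in the dark (2.26 ± 0.13). Among the 3 lower in light, GRX480, a glutaredoxin of salicylic acid and jasmonate signalling, was dim in light and differed by -1.57 ± 0.16, and GRXC1, a cytosolic glutaredoxin, by -1.29 ± 0.16; both were named after their values were seen.

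Glutathione S-transferases, which couple glutathione to reactive compounds, went both ways: 7 of 14 measured were higher in light and 4 lower. These were 50% and 28.6%, against 15.4% and 19.7% of all genes, and the counts were 4 and 3 after centring on the hybridisation controls. GSTU20, a member linked to glucosinolate synthesis, had 11.44 and 11.48 in light, 7.55 and 6.24 with H2O2 and 8.26 and 8.39 in the dark (4.56 ± 0.34, adjusted p = 7.94e-06), so H2O2 seedlings had the lowest level of the 3 groups. GSTU18 was higher in light by 2.68 ± 0.22 and GSTL3 by 2.26 ± 0.15. GSTU22 ran the other way, with 7.32 and 6.92 in light, 9.99 and 10.09 with H2O2 and 10.38 and 10.42 in the dark (-2.91 ± 0.16, adjusted p = 1.51e-06). Of 7 measured class III peroxidases, secreted enzymes that use H2O2 at the cell wall, none was higher in light and 4 were lower, with a median of -0.85. AT2G41480 (PRX25) had 5.55 and 5.68 in light, against 8.08 and 7.68 with H2O2 (-2.27 ± 0.18), AT5G66390 (PRX72) had 7.53 and 7.26, against 9.82 and 9.46 (-2.24 ± 0.17), and Prx37 had 5.32 and 5.09, against 7.27 and 6.91 (-1.88 ± 0.18). In the dark these 3 had 8.03 and 8.41, 10.15 and 9.90, and 7.70 and 7.36, which is near or above the H2O2 arrays. AT5G64120 (PRX71) was lower by 0.85 ± 0.15, a call that ended with centring on the hybridisation controls (adjusted p = 0.272).

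Secondary metabolism differed in several branches. The shares of all genes were 15.4% higher and 19.7% lower, against 21.6% and 31.4% of the UDP-glycosyltransferases below. Of 7 measured genes of sulfate assimilation and glucosinolates, the sulfur-containing defence compounds of the cabbage family, 5 were higher in light and 1, APS4, lower, 3 and 0 after centring on the hybridisation controls. GSTU20, already counted with the glutathione S-transferases, is among the 5. BCAT4, which starts methionine chain elongation, had 11.10 and 11.14 in light, 7.92 and 7.24 with H2O2 and 7.02 and 7.92 in the dark (3.54 ± 0.30, adjusted p = 1.64e-05). APS3, an ATP sulfurylase, had 7.81 and 7.94 in light, against 6.03 and 5.78 with H2O2 (1.97 ± 0.14). Of 7 flavonoid genes 3 were higher and 4 not called. CHIL, a chalcone isomerase-like protein, had 9.04 and 8.23 in light, against 5.73 and 5.75 with H2O2 (2.89 ± 0.23), and UGT78D2 and UGT78D1, which attach sugars to flavonols, were each higher by 2.12, with SE of 0.17 and 0.28. UGT78D2 is counted again among the UDP-glycosyltransferases. Of 51 measured UDP-glycosyltransferases 11 were higher in light and 16 lower, the higher count falling to 7 without light replicate 1, 6 without H2O2 replicate 1 and 3 with centring on the hybridisation controls, which left 9 of the 16 lower. UGT76E2, dim in light, had 5.25 and 4.84 there, 7.82 and 8.10 with H2O2 and 7.15 and 7.35 in the dark (-2.92 ± 0.18). UGT76B1, which glucosylates the immune signal isoleucic acid, had 6.53 and 6.42 in light, against 8.87 and 8.90 with H2O2 and 9.36 and 9.09 in the dark (-2.41 ± 0.14). Of 22 measured cytochrome P450 genes 9 were higher and 3 lower, 3 and 0 after that centring, led by CYP71B26 with 9.26 and 9.19 in light, against 5.11 and 5.42 with H2O2 and 5.14 and 5.56 in the dark (3.96 ± 0.18). Of 8 measured starch genes 3 were higher and 1 lower, 1 and 0 after that centring, against 15.4% and 19.7% of all genes, and the largest was SBE2.2, a starch branching enzyme, by 1.63 ± 0.14. The lower one, the alpha-amylase gene AMY1, was dim in both groups (-0.39 ± 0.13, adjusted p = 0.0367) and lost the call whichever of the 4 arrays was left out (0.0753 to 0.13).

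**Figure D3:**
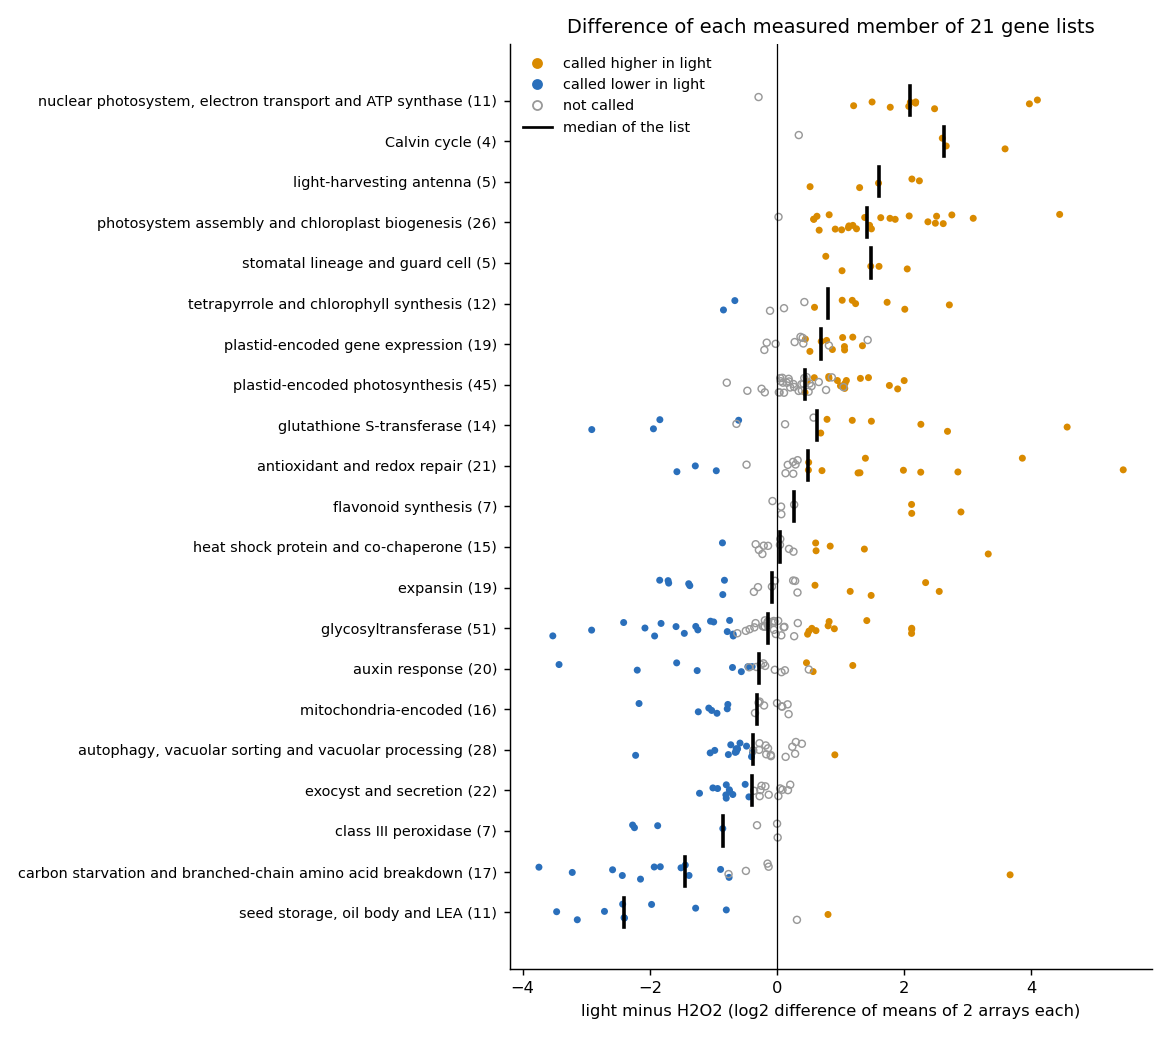
Light minus H2O2 difference (horizontal axis, log2) of each measured member of 21 gene lists (rows, number measured in brackets), each point 1 gene; filled points were called, open ones were not, and the black bar is the list's median. Medians run from 2.63 for the Calvin cycle to -2.40 for the seed storage, oil body and LEA genes, and the lists of detoxification genes spread over both sides of 0.

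Genes of stomata and root hairs were both higher in light. All 5 measured stomatal genes were called, 3 after centring on the hybridisation controls, with a median of 1.48. Of all genes 15.4% were higher. STOMAGEN, a mesophyll peptide that promotes stomata, had 8.42 and 8.94 in light, 6.92 and 7.23 with H2O2 and 7.59 and 7.41 in the dark (1.6 ± 0.19, adjusted p = 0.000169). AT4G14480 (BLUS1), the guard cell kinase of blue light opening, had 6.22 and 6.48 in light, against 4.22 and 4.38 with H2O2, and FMA, the last of 3 bHLH switches of the lineage, had 5.66 and 5.41 in light, against 4.24 and 3.88; both were dim with H2O2 and differed by 2.05 ± 0.14 and 1.47 ± 0.19. SPCH, the first switch, was called at 1.02 ± 0.29 but not without light replicate 1 (adjusted p = 0.104), H2O2 replicate 1 (0.134) or H2O2 replicate 2 (0.055), nor after that centring (0.28), and was dim with H2O2. Of 26 root hair genes listed 2 were measured, and both are expansins of growing root hairs. EXPA7 had 6.60 and 6.43 in light, 3.83 and 4.09 with H2O2 and 5.67 and 5.17 in the dark (2.55 ± 0.19, adjusted p = 7.65e-06). EXPA18 had 6.68 and 6.45 in light, 4.44 and 4.01 with H2O2 and 6.05 and 5.32 in the dark (2.34 ± 0.24). Both were dim with H2O2 and lowest there of the 3 groups. None of 33 listed genes of root endodermis, pericycle and columella was measured by a probe set of a single gene.

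The single largest differences included genes outside any list. ECS1 had 12.13 and 12.09 in light, 4.43 and 4.47 with H2O2 and 5.53 and 5.37 in the dark, a difference of 7.66 ± 0.13 (adjusted p = 1.21e-08). AT2G25510 had 11.14 and 11.11 in light, against 3.55 and 3.65 with H2O2 (7.53 ± 0.34). THI2.2, an antimicrobial thionin, had 10.65 and 10.86 in light, 4.06 and 3.90 with H2O2 and 4.70 and 4.87 in the dark (6.77 ± 0.14, adjusted p = 3.66e-08). The H2O2 arrays of ECS1 and THI2.2 lay under both dark arrays. AT1G65490, AT1G23130, AT1G66100, AT1G22690, AT1G51110, MSRB6 and AT3G56290 completed the 10 largest, with differences of 6.65 to 5.43. All 10 but AT1G22690 were dim with H2O2, so these sizes are uncertain.

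On the side that H2O2 seedlings kept, breakdown of amino acids and reserves stood out. Of 17 measured genes of carbon starvation and branched-chain amino acid breakdown, 12 were lower in light and 1 was higher, with a median of -1.44. The shares were 70.6% and 5.88%, against 19.7% and 15.4% of all genes, and 10 of the 12 were lower by at least 2-fold. These counts changed little with any array left out (12 or 13 lower). MGL, the methionine gamma-lyase that feeds isoleucine synthesis, had 7.33 and 7.52 in light, 11.20 and 11.14 with H2O2 and 11.54 and 11.38 in the dark (-3.74 ± 0.14, adjusted p = 2.72e-07). AT4G33150 (LKR/SDH), which starts lysine breakdown, had 8.07 and 8.24 in light, 11.21 and 11.55 with H2O2 and 10.12 and 9.77 in the dark (-3.22 ± 0.17, adjusted p = 1.52e-06). MCCA, a subunit of the methylcrotonyl-CoA carboxylase of leucine breakdown, had 8.71 and 9.4 in light, 11.47 and 11.82 with H2O2 and 10.78 and 10.41 in the dark (-2.59 ± 0.24, adjusted p = 2.96e-05). MGL was thus as high in darkness alone, while AT4G33150 and MCCA were highest with H2O2. SAG29, also known as the sugar transporter SWEET15 and dim with H2O2, was the member higher in light, with 9.03 and 8.20, against 5.11 and 4.79 with H2O2 (3.67 ± 0.35).

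Genes of fat and seed reserves were mostly lower in light too, with dark levels that differed by gene. ICL, the isocitrate lyase that turns seed oil into sugar, had 6.90 and 5.79 in light, 11.01 and 11.48 with H2O2 and 11.81 and 10.63 in the dark (-4.90 ± 0.42, adjusted p = 1.89e-05). SDP1, the lipase that opens oil bodies, was lower in light by 1.18 ± 0.14, a call that ended with centring on the hybridisation controls (adjusted p = 0.0722). AIM1, of peroxisomal beta-oxidation, had 9.38 and 9.52 in light and 9.47 and 9.62 with H2O2 (-0.10 ± 0.13, adjusted p = 0.628). Its dark arrays lay under both, at 8.82 and 8.78. Of 11 measured genes for seed storage proteins, oil bodies and late embryogenesis abundant (LEA) proteins, 9 were lower in light and 1 higher, with a median of -2.40. The shares were 81.8% and 9.09%, against 19.7% and 15.4% of all genes. OLEO3, an oleosin that coats oil bodies, had 4.35 and 4.50 in light, 7.57 and 7.56 with H2O2 and 6.89 and 7.15 in the dark (-3.14 ± 0.14, adjusted p = 6.62e-07). EEL, a bZIP factor of late embryogenesis, had 4.56 and 4.25 in light, 6.84 and 7.40 with H2O2 and 6.28 and 6.13 in the dark (-2.71 ± 0.20). M17, a LEA gene, had 3.12 and 4.97 in light, 7.03 and 7.99 with H2O2 and 3.37 and 4.49 in the dark (-3.47 ± 0.58, adjusted p = 0.00116), and was not called when the variance prior followed the signal and was made robust (0.0618). LEA18 had 3.72 and 4.58 in light, 6.11 and 7.04 with H2O2 and 4.38 and 5.09 in the dark (-2.43 ± 0.37). All 4 were dim in light, and M17 and LEA18 were dim in the dark too, so H2O2 seedlings alone held them above the dim bound.

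**Figure D4:**
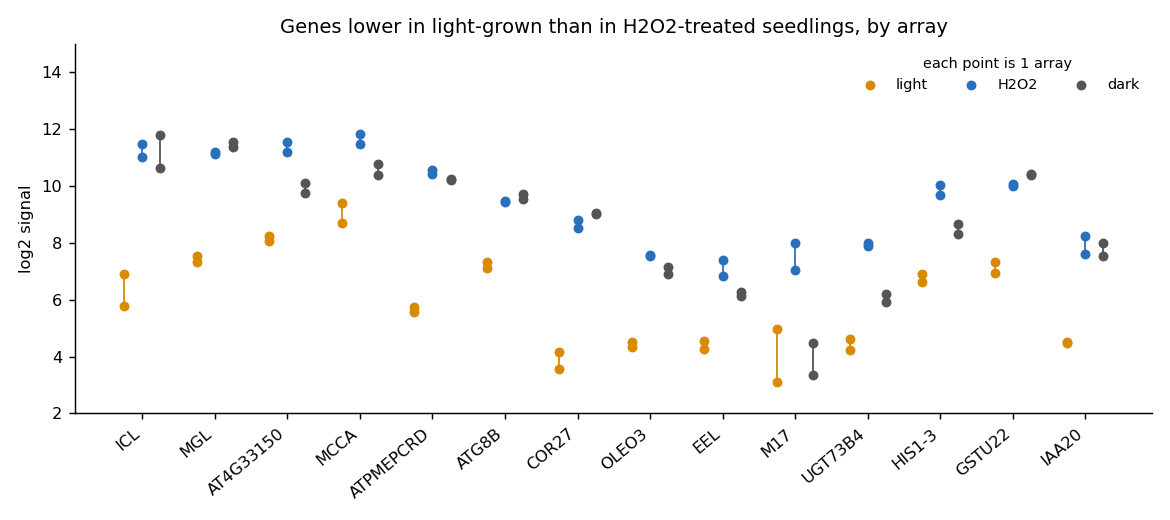
Log2 signal of 14 genes called lower in light than with H2O2, on each array, with light at the left, H2O2 in the middle and dark at the right of each gene; each point is 1 array and the line joins the 2 replicates. H2O2 arrays stand above light arrays in all 14, from ICL at 6.90 and 5.79 in light against 11.01 and 11.48 with H2O2 to M17 at 3.12 and 4.97 against 7.03 and 7.99, while the dark arrays reach the H2O2 level for ICL and MGL but not for M17 and UGT73B4.

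Recycling genes were lower in light by smaller steps. Among all genes 19.7% were lower and 15.4% higher. Of 28 measured genes of autophagy, vacuolar sorting and vacuolar processing, 14 were lower in light and 1 higher, with a median of -0.38, and 2 of the 14 by at least 2-fold. The count of 14 was 6 without light replicate 2, 9 without H2O2 replicate 1, 5 without H2O2 replicate 2 and 1 with centring on the hybridisation controls. ATG8B, of the ubiquitin-like family that marks autophagosomes, had 7.34 and 7.12 in light, 9.43 and 9.47 with H2O2 and 9.70 and 9.54 in the dark (-2.22 ± 0.14, adjusted p = 3.35e-06). GAMMA-VPE, a vacuolar processing protease, was lower by 1.05 ± 0.18 and ATG8D by 0.98 ± 0.15, and neither stayed called with that centring (adjusted p = 0.129 and 0.172). Of 25 ubiquitin-conjugating enzymes and ubiquitin proteases 9 were lower (36%) and 3 higher (12%). UBC32, an enzyme of endoplasmic reticulum quality control, had 7.91 and 7.86 in light, against 9.02 and 9.09 with H2O2 (-1.16 ± 0.13). None of the 25 was called with that centring, and the 3 higher were 1 without either 1 of the H2O2 replicates and 2 without light replicate 1. Of 22 exocyst and secretion genes 11 were lower in light and none higher, with a median of -0.40 and differences of -1.22 to 0.21, and none of these was called with that centring either.

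Mitochondria-encoded transcripts were lower in light or not called. Of 16 measured, none was higher in light and 7 were lower, with a median of -0.32, 5 to 7 being called with 1 array left out and 1 with centring on the hybridisation controls. nad5, a subunit of respiratory complex I, had 4.56 and 4.99 in light, 6.72 and 7.17 with H2O2 and 7.71 and 7.84 in the dark (-2.17 ± 0.20, adjusted p = 2.63e-05), and is dim in light. cox1, of cytochrome c oxidase, had 6.48 and 6.95 in light, 7.85 and 8.05 with H2O2 and 8.71 and 9.21 in the dark (-1.24 ± 0.21), a call that ended with that centring (adjusted p = 0.0558). The H2O2 arrays of both stood between light and dark. Among 23 nuclear genes of the tricarboxylic acid cycle and respiration, 3 were higher in light and 2 lower, against 15.4% and 19.7% of all genes. The lower count was 4 without light replicate 2 and 1 without light replicate 1 or H2O2 replicate 1, the higher count was 2 whichever array was left out, and 1 higher and 0 lower were called with that centring. NDC1, a chloroplast type II NAD(P)H dehydrogenase, was the largest of these, with 7.68 and 7.43 in light, against 5.67 and 5.86 with H2O2 (1.79 ± 0.15).

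Auxin and gibberellin genes were more often lower in light than higher. Among all genes 19.7% were lower and 15.4% higher, and the share of auxin genes that was higher (15%) was near that. Of 20 measured auxin genes 8 were lower and 3 higher, the 8 falling to 5 without H2O2 replicate 1 and to 3 after centring on the hybridisation controls. Of the higher side, the count of 3 was 1 without light replicate 1 or H2O2 replicate 1, 2 without H2O2 replicate 2 and 0 with that centring. IAA20, an Aux/IAA protein, had 4.51 and 4.48 in light, 7.61 and 8.23 with H2O2 and 8.01 and 7.53 in the dark (-3.43 ± 0.22, adjusted p = 4.01e-06), and IAA29, of the same family, had 5.26 and 4.95, 7.55 and 7.06, and 7.01 and 6.88 in the same groups (-2.20 ± 0.19). Both were dim in light. GH3.3, which conjugates auxin to amino acids, had 6.12 and 6.24 in light, against 7.87 and 7.65 with H2O2 (-1.58 ± 0.14). All 3 gibberellin receptor genes were lower in light, GID1B by 1.1 ± 0.13, GID1A by 1.05 ± 0.13 and GID1C by 0.79 ± 0.20. None of the 3 stayed called with centring on the hybridisation controls (adjusted p = 0.104, 0.128 and 0.334), and GID1C was not called without light replicate 2 (0.0637) or H2O2 replicate 2 (0.103). Of 19 expansins, which loosen cell walls, 7 were lower and 5 higher, 5 and 3 after that centring, so their direction was mixed. EXPA7 and EXPA18 of the root hair list are among the 5 higher. EXPA9 had 7.16 and 7.11 in light, 9.16 and 8.80 with H2O2 and 9.11 and 9.01 in the dark (-1.85 ± 0.15), and EXPA4 had 9.13 and 8.81, 10.66 and 10.71, and 10.25 and 10.27 (-1.71 ± 0.15). Wall-remodelling genes split evenly, with 9 higher and 9 lower of 33, counts that fell to 4 higher without light replicate 2 or H2O2 replicate 2 and to 5 lower without H2O2 replicate 1, and to 3 each after that centring. Among them XTH32 was higher in light by 2.32 ± 0.24 and XTH33, dim in light, lower (-1.93 ± 0.14).

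The measured stress genes gave single large differences rather than a shared direction. Of 54 listed photoreceptor and light signalling genes 2 were measured, HYH and FHL, and of 30 clock genes 2. These are too few to show whether their class has a direction. COR27, a cold-regulated gene that acts in light and clock signalling, had 3.57 and 4.15 in light, 8.52 and 8.81 with H2O2 and 9.02 and 9.05 in the dark (-4.81 ± 0.20, adjusted p = 4.04e-07), and is dim in light. RD2, a dehydration-responsive gene, had 9.54 and 9.45 in light, against 11.16 and 11.20 with H2O2 and 11.24 and 11.15 in the dark (-1.69 ± 0.13). COR15A, dim in all 3 groups, ran the other way, with 4.44 and 4.37 in light, against 3.33 and 3.39 with H2O2 (1.05 ± 0.15, adjusted p = 0.000508). Its call ended with centring on the hybridisation controls (adjusted p = 0.258). COR47, a dehydrin, was called at -0.61 ± 0.21 (adjusted p = 0.0471) and lost the call whichever of the 4 arrays was left out (0.121 to 0.194) and after centring on the hybridisation controls (0.539). HYH, the HY5-related bZIP factor of photomorphogenesis, had 7.94 and 7.71 in light, 6.12 and 5.89 with H2O2 and 5.11 and 4.94 in the dark (1.82 ± 0.15, adjusted p = 1.55e-05). FHL, which carries phytochrome A into the nucleus, had 4.70 and 4.31 in light, 6.37 and 6.42 with H2O2 and 5.90 and 5.78 in the dark (-1.89 ± 0.16), and is dim in light. HYH with H2O2 stood between light and dark, and FHL with H2O2 above both. The clock gene GI had 7.76 and 8.03 in light and 7.89 and 7.69 with H2O2 and was not called (adjusted p = 0.657). Of 15 heat shock and co-chaperone genes 5 were higher in light and 1 lower, the 5 being 3 without H2O2 replicate 2 and 1 with centring on the hybridisation controls, led by AT5G48570 (ROF2), a heat-induced immunophilin that is dim with H2O2, with 7.51 and 7.46 in light, against 4.04 and 4.28 with H2O2 and 3.32 and 3.01 in the dark (3.32 ± 0.16). Of 7 WRKY factors 2 were higher and 1 lower, against 15.4% and 19.7% of all genes, none after that centring, and the difference of none exceeded 0.63 in either direction. The higher count was 0 without H2O2 replicate 2 and 1 without light replicate 2 or H2O2 replicate 1, and the lower count was 0 without light replicate 1 or H2O2 replicate 1.

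Chromosome and cell cycle genes were largely not called. Of 13 measured, none was higher in light and 2 were lower (15.4%), below the 19.7% of all genes that were lower. HIS1-3, a linker histone induced by drought, had 6.91 and 6.63 in light, 10.03 and 9.68 with H2O2 and 8.67 and 8.32 in the dark (-3.09 ± 0.18, adjusted p = 2.33e-06). SIM, an inhibitor of cyclin-dependent kinases that takes cells into endoreduplication, had 7.82 and 7.73 in light, 9.96 and 10.06 with H2O2 and 10.61 and 10.51 in the dark (-2.23 ± 0.13, adjusted p = 2.15e-06). SIM was highest on the dark arrays, and HIS1-3 on the H2O2 arrays.

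Setting the dark arrays beside each call separates kinds of difference, among genes with a mean of at least 7 in the higher group. The H2O2 arrays enter both the difference from light and the difference from dark, so the 2 are not independent. The first kind is higher in light with H2O2 within 0.25 of dark, and its 5 largest were AT1G66100, MSRB6, AT3G56290, AT2G29290 and AT3G57020, with light minus H2O2 differences of 6.39 to 4.85. Of these, AT1G66100, MSRB6 and AT3G56290 were dim both with H2O2 and in the dark, where a difference between H2O2 and dark is hard to see. AT2G29290 had 10.67 and 10.74 in light, 5.22 and 5.42 with H2O2 and 5.09 and 5.28 in the dark. The second kind is also higher in light but with H2O2 at least 1 above dark, and its 5 largest were smaller, at 3.18 to 2.84. AT5G16030 had 10.39 and 10.50 in light, 7.64 and 7.33 with H2O2 and 5.48 and 5.47 in the dark, so H2O2 exceeded dark by 2.01 ± 0.15 and light exceeded H2O2 by 2.96 ± 0.15. AT2G42220 had 11.17 and 11.18, 8.40 and 7.89, and 7.05 and 7.10 in the same groups, and AT5G20790, AT1G62780 and AT2G33250 were the others. By the rule that picked them, these 5 lay between dark and light with H2O2, although for AT5G20790 the difference from dark was not called (adjusted p = 0.0554). AT5G20790 and AT1G62780 were dim in the dark, so the size of their step from dark is uncertain.

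The third kind is lower in light with H2O2 within 0.25 of dark: AT1G19530, AT5G39520, AT2G47780, ICL and AT5G02580, with differences of -6.0 to -4.36. AT1G19530, the largest difference on that side, had 5.35 and 5.64 in light, 11.08 and 11.91 with H2O2 and 11.96 and 11.11 in the dark (-6.0 ± 0.32, adjusted p = 1.32e-06). All 5 had H2O2 and dark arrays that overlapped or nearly met, far above light, and AT5G39520, AT2G47780 and AT5G02580 were dim in light. The fourth kind is lower in light with H2O2 at least 1 above dark, and these are the transcripts highest in H2O2 seedlings of the 3 groups: AT1G12080, UGT73B4, M17, AT4G33150 and HIS1-3. UGT73B4, a glycosyltransferase that acts on flavonols and foreign compounds and is dim in light, had 4.62 and 4.23 in light, 7.90 and 8.00 with H2O2 and 6.20 and 5.90 in the dark. Light lay under H2O2 by 3.53 ± 0.17 (adjusted p = 9.1e-07), and H2O2 over dark by 1.90 ± 0.17 (adjusted p = 0.000333). AT1G12080 had 7.04 and 6.63 in light, 10.87 and 10.65 with H2O2 and 10.01 and 9.07 in the dark. M17 differed from dark by 3.58 ± 0.58 with H2O2 and by 0.12 ± 0.58 in light, and so was the member of this kind whose light and dark arrays overlapped. ATPMEPCRD, AT5G44440, AT4G37220, AT4G35720, COR27 and AT4G25580, the other members of the 10 largest on the lower side, differed by -5.39 to -4.77 from light and belong to neither kind at these bounds.

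**Figure D5:**
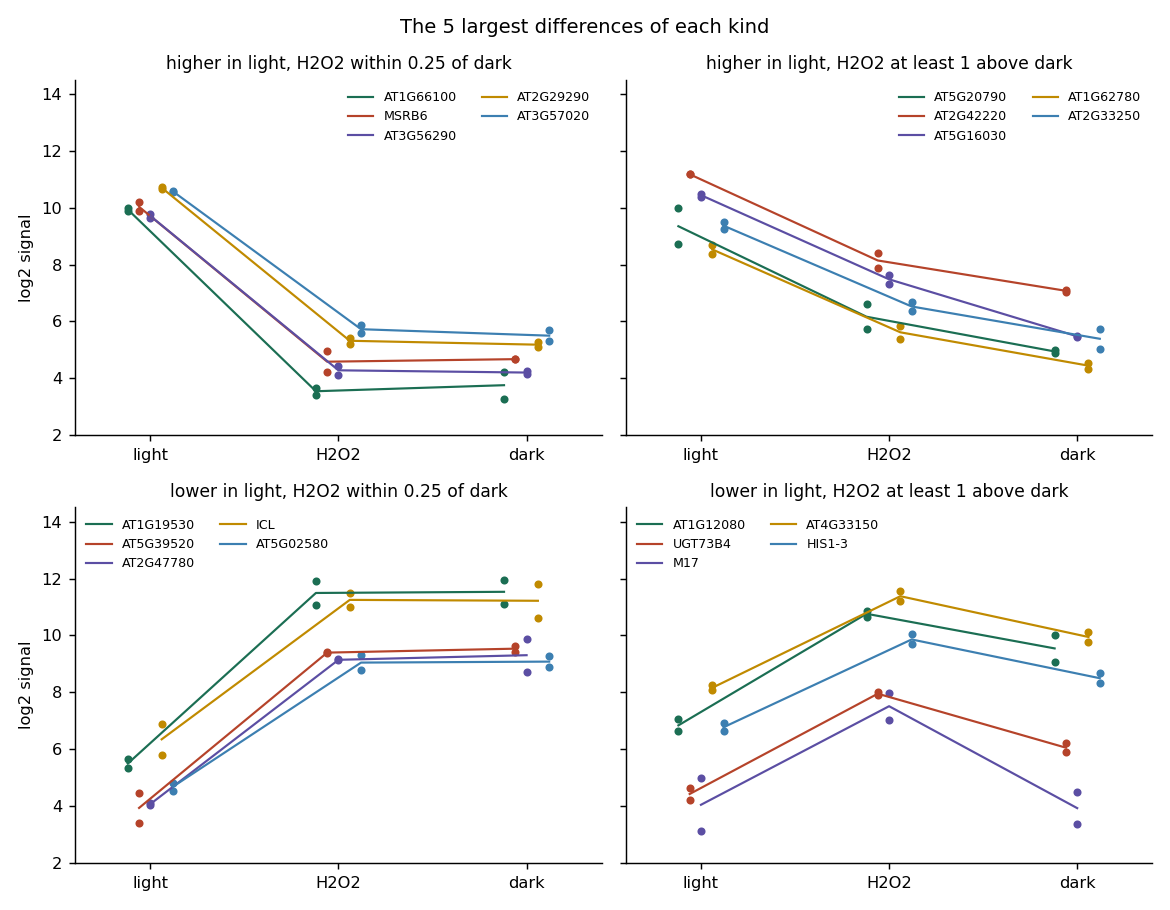
Log2 signal in light, H2O2 and dark of the 5 genes with the largest difference in each of 4 kinds, set by the direction between light and H2O2 and by the mean with H2O2 relative to dark; points are arrays and lines join group means. Where the H2O2 points lie follows from this sorting. With H2O2 the upper left genes lie at the dark level and far under light, the upper right ones part of the way up, the lower left ones at the dark level and above light, and the lower right ones above both.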

How the data were processed

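Per the labels, the arrays are Affymetrix ATH1, with 1 biotin-labelled sample each. The authors deposited 1 table of log2 expression values for 22810 probe sets; the submitters' processing notes name RMA and limma, with no version. The log2 scale was read from the range of the values, and no scanner values were used to check it. Arrays give no counts, so their number limits the precision. The 64 array controls were left out and 22746 probe sets tested without a filter, by limma (version 3.58.1, run in R 4.3.3) with lmFit and eBayes on 3 group means over 6 arrays (2-sided, 3 residual and 5.84 prior degrees of freedom, median SE 0.149). Per platform annotation, 13513 probe sets name 1 gene, 503 several and 8730 none; 13484 matched the RefSeq gene table of TAIR10.1, used for names only. The brightest single-gene probe set stood for a gene, giving 13355 genes; 1 gene had probe sets called in opposite directions. Named were the 10 largest differences each way, the 5 largest of each of 4 kinds by dark level, and up to 4 members of each list. GRX480, GRXC1, APS4, ATPC2 and YLMG1-2 lie outside that rule and were picked with their values known. The members and lists were chosen with earlier results of these data known. Lists describe measured members, a minority of many classes. The replicates are labelled biological, so p-values measure the spread between these arrays. The steps were tested on simulated data. Alternatives are given below; no promoter or protein sequences were used here.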

Additional observations from a re-analysis of the deposited data

How the results depend on the processing

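The 8981 calls were within 1.5 times of that number under 10 of 11 refits and at an adjusted p under 0.01 (6609). After centring on the hybridisation controls the median over all probe sets was -0.147, and 2576 were called, 1401 higher and 1175 lower; these controls differed most between the light arrays. At an added minimum of 2-fold 3988 were called, 2126 higher and 1862 lower. With 1 array left out 6797 to 7863 were called, 3107 to 3635 higher and 3690 to 4385 lower. Of 194 called genes picked for naming, 119 stayed called under every alternative that tested them, none reversed, 21 lost the call when 1 array was left out and 21 of the 199 were not tested without the dimmest 40% of probe sets. Refits that kept the same light and H2O2 arrays and values left each difference unchanged, so no gene could reverse under them. Replicate numbers did not pair the arrays: the replicate differences of light and H2O2 correlated at -0.00186, and a fit with replicate as a block called 8972. List medians near 0 changed sign with centring on the hybridisation controls for clock (-0.0541), heat shock (-0.0378), P450 (-0.0603), WRKY (-0.0836, and -0.000201 after repeated quantile normalisation), cytokinin (-0.0116), wall (-0.0173), cell cycle (-0.0335), RALF (-0.0776) and U-box (-0.0807) genes, and on array medians for tricarboxylic acid cycle genes (0.00621). The cause was not tested.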

Other observations

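Cytoskeleton-linked IQD, TRM and NET genes were split: of 50 measured, 15 were lower in light and 5 higher, against 19.7% and 15.4% of all genes, and 3 and 2 were after centring on the hybridisation controls. IQD24, dim with H2O2, had 7.15 and 7.05 in light, 4.66 and 4.32 with H2O2 and 4.07 and 4.08 in the dark (2.61 ± 0.15, limma adjusted p = 1.99e-06). IQD22, of the same family of calmodulin-binding proteins, had 5.79 and 5.81 in light, 7.90 and 7.70 with H2O2 and 7.87 and 8.07 in the dark (-2.0 ± 0.14, adjusted p = 6.17e-06). Relatives in a family therefore differed in opposite directions. Of 15 tetraspanins, membrane proteins of exosomes, 5 were lower and 2 higher, against 19.7% and 15.4% of all genes, 2 and 0 were after that centring, and the 2 higher were 1 whichever array was left out, with TET8 at 9.10 and 9.52 in light, against 10.63 and 10.70 with H2O2 (-1.36 ± 0.16).

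Sugar and wall genes gave a few large differences; most SWEET, beta-glucosidase and RALF genes were not called. Of 16 SWEET sugar transporters 2 were higher in light and 2 lower, below the 15.4% and 19.7% of all genes, and 2 and 1 were after centring on the hybridisation controls, with SWEET1 at 8.22 and 7.68 in light, against 6.4 and 6.44 with H2O2 (1.53 ± 0.18), and SWEET3 at 5.48 and 5.19, against 6.87 and 7.12 (-1.66 ± 0.16). The other higher one was SAG29, already counted on the carbon starvation list. Of 22 beta-glucosidases 3 were higher and 2 lower, also below those shares, and 2 and 0 were after that centring. BGLU33, dim with H2O2, had 7.36 and 7.66 in light, 4.68 and 4.72 with H2O2 and 3.82 and 4.03 in the dark (2.81 ± 0.15). Of 23 trichome birefringence-like genes, which acetylate wall polymers, 7 were higher and 5 lower, 2 and 0 after that centring, the 5 being 2 without H2O2 replicate 1 and 3 without light replicate 1 or H2O2 replicate 2. The 7 and 5 were 30.4% and 21.7%, against 15.4% and 19.7% of all genes. TBL45 had 8.99 and 8.82 in light, against 6.79 and 6.94 with H2O2 (2.04 ± 0.14). Of 10 RALF peptide genes 2 were higher and 1 lower, against the same shares, and 0 and 1 were after that centring. RALFL32 had 9.17 and 9.10 in light, against 10.36 and 10.72 with H2O2 (-1.41 ± 0.15).

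Chromatin and RNA machinery differed by small amounts, none above 1.17 in either direction among 20 chromatin and 37 Mediator, splicing, small RNA and RNA polymerase genes. Of these, 6 and 11 were lower in light (30% and 29.7%), against 19.7% of all genes, and 1 and 3 higher (5% and 8.11%), against 15.4%. None was called after centring on the hybridisation controls. The 11 were 7 without light replicate 1 and 6 without either 1 of the H2O2 replicates. The 3 were 0 without light replicate 1 or H2O2 replicate 2 and 1 without light replicate 2 or H2O2 replicate 1.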
